A study of Saccharomyces cerevisiae with 28 samples.

Results

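The comparison described here sets HS yeast fermenting in 50% sucrose against HS yeast in the same medium without sucrose. It asks what separates a culture under hyperosmotic sugar from a culture without sucrose, at the opposite ends of the sucrose series. HS is 1 of 2 baker's yeasts (Saccharomyces cerevisiae) in the series. The labels call the other one LS, expand neither name, and give no genotype, ploidy or content of the medium, named LF. Poly(A) RNA was taken after 60 min of fermentation and hybridised to Affymetrix arrays. The members were chosen by their titles alone and are 4 of the 28 arrays, 2 replicates at 50% sucrose and 2 at 0%. The 6 HS arrays at 5, 10 and 20% sucrose, called the 5 to 20% arrays below, serve to place each gene. Values of HS arrays at 30 and 40% and of LS arrays at 50 and 0% are given where named. All 14 HS arrays entered the fit and share 1 estimate of spread. Whether the replicates were grown as separate cultures is not stated, so each p-value reflects the spread among these arrays only, which may be technical. Precision is limited by the small number of arrays.

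Sucrose is cleaved outside the cell by invertase into glucose and fructose, which enter through hexose transporters. Glucose represses genes for the use of other carbon sources through the repressor Mig1, and it induces low-affinity transporters by relieving the repressor Rgt1. When sugar runs out, repression is lifted, and gluconeogenesis, storage carbohydrates and stress proteins are induced. Highly concentrated sugar draws water out of the cell, and yeast responds through the high osmolarity glycerol (HOG) pathway by making and keeping glycerol. Many general stress genes answer to both conditions through the transcription factors Msn2 and Msn4.

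A deposited value is a normalized ratio, scaled per array and per gene by the authors, so a ratio of 1 is about the usual level of that gene across the series. It compares arrays within a gene and says nothing about one gene against another. RNA came from whole cultures, so fewer cells expressing a gene and less transcript per cell cannot be told apart. Differences below are log2 differences, 50% minus 0% unless stated, ± SE (limma, 2 arrays in each group). The spread is estimated over the 14 HS arrays, or over all 28 arrays where the yeasts are compared. The adjusted p is Benjamini-Hochberg over all 5498 S. cerevisiae probe sets tested. A gene is called at an adjusted p under 0.05.

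At 50% sucrose 339 probe sets were called against 0% sucrose (6.17% of those tested), 188 higher (3.42%) and 151 lower (2.75%), and 1328 had an unadjusted p under 0.05. For all 339 the arrays of the groups did not overlap, which was also so for 46.3% of all probe sets tested. Of the called probe sets 176 differed at least 4-fold. Counts of list members called between the ends are to be read beside 3.42% higher and 2.75% lower over all probe sets. The number of calls depended on the arrays in the fit. Of the 339 calls, 144 were kept in the same direction without the first 50% array and 226 without the second, and 69 were kept without the first 0% array and 52 without the second. In all 4 of these fits 33 calls were kept, 26 higher and 7 lower. In a fit of all 28 arrays, whose LS second replicates spread widely, limma called 0 probe sets and 294 had an unadjusted p under 0.05. The 4 compared arrays alone gave 46 calls, 42 higher and 4 lower. Quantile normalization gave 48 calls. PIR1, ANS1 and LDS2, described below as kept in all 4 fits, were not among these (limma adjusted p from 0.0603 to 0.0798).

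The 4 arrays differed in more than the called genes. Replicates correlated at r = 0.646 across probe sets at 50% and 0.725 at 0%. The array also carries probe sets of the fission yeast Schizosaccharomyces pombe, which serve as a background. Their median ratio was 0.385 and 0.1495 on the 50% arrays, against 0.183 and 0.119 on the 0% arrays. The median fitted difference was 0.82 over the S. pombe probe sets and 0.10 over the S. cerevisiae probe sets. The part of this background in the results was not tested.

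Many genes differed from moderate sucrose at each end of the series. Against the 5 to 20% arrays, 2535 probe sets were called at 50% (46.1%) and 1771 at 0% (32.2%). Both comparisons use the same 6 arrays at 5 to 20%, so their values are given side by side only, and with 6 arrays in place of 2 on one side the counts cannot be set against the 339. The gluconeogenesis and glyoxylate cycle list, 18 measured genes whose enzymes make sugar from smaller carbon compounds, had a median difference from the 5 to 20% arrays of 4.45 at 50% and 3.84 at 0%. Of these 18 genes, 14 were called higher at 50% and 13 at 0%, and the shares of all probe sets called higher were 20.7% and 13.6%. Between 50% and 0% directly, 0 of the 18 were called, with a median of 0.30 that turned to -0.11 under quantile normalization. Over all genes the median between 50% and 0% was 0.10.

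FBP1, the gluconeogenic fructose-1,6-bisphosphatase, had ratios of 9.90 and 22.7 at 50%, against 22.02 and 10.7 at 0%. The 5 to 20% arrays lay between 0.0448 and 0.435. Both ends were therefore far above the middle of the series, and their ranges almost coincided. The difference was -0.03 ± 0.95 (limma adjusted p = 0.986), an error wide enough to hide a change of several-fold. PCK1, the phosphoenolpyruvate carboxykinase of the same pathway, had 11.2 and 11.7 at 50%, against 16.2 and 4.01 at 0%. MTH1, a cofactor of the Rgt1 repressor that is made when glucose is scarce, had 13.3 and 26.5 at 50%, against 29.9 and 13.96 at 0%. ICL1, isocitrate lyase of the glyoxylate cycle, had 10.3 and 28.5 at 50%, against 31.9 and 12.3 at 0%. In these genes the 50% and 0% arrays overlapped, and each array at either end was above the highest 5 to 20% array.

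The stress and storage lists here gave 0 calls between the ends, where 6.17% of all probe sets were called. At that share a list this small would hold few calls or none. Hydrophilins and stationary phase genes, small proteins that accumulate in starved or dehydrated cells, had medians of 5.70 at 50% and 4.89 at 0% against the 5 to 20% arrays. Between 50% and 0%, 0 of 25 were called, with a median of 0.46. Trehalose genes (0 of 9 called), glycogen genes (0 of 11), genes of peroxisomal fatty acid oxidation (0 of 16) and hexose kinases (0 of 4) gave no call between the ends either. Medians were -0.37, -0.31, 0.36 and -0.28 in that order. TPS1, trehalose-6-phosphate synthase, had 4.25 and 13.6 at 50%, against 7.09 and 3.45 at 0%, and 0.306 to 0.515 at 5 to 20%. HXT5, a hexose transporter of slow-growing cells, had 3.96 and 4.79 at 50%, against 7.11 and 2.18 at 0%. HSP12, a small membrane-protecting stress protein, had 3.40 and 3.67 at 50%, against 4.07 and 1.22 at 0%. These genes overlapped between the ends as well. The G1 cyclin CLN2 was low at both ends, with 0.0238 and 0.214 at 50%, against 0.403 and 0.111 at 0%, where 5 to 20% arrays had 7.81 to 19.7.

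**Figure D1:**
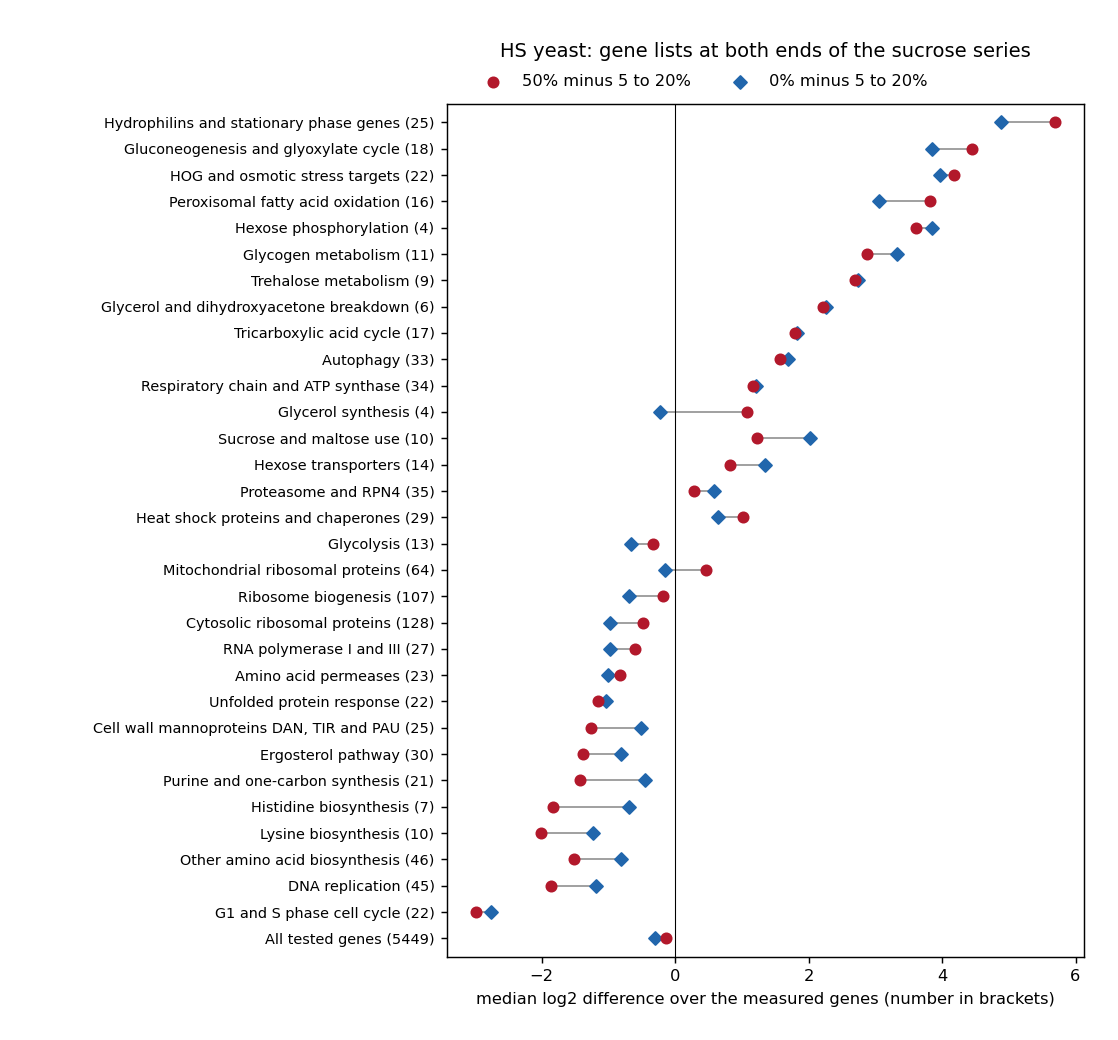
Median log2 difference from the 5 to 20% sucrose arrays over the measured genes of 31 lists and over all tested genes, for HS yeast at 50% (circles) and at 0% sucrose (diamonds). Both markers of gluconeogenesis lie far to the right (4.45 and 3.84). Glycerol synthesis (1.08 and -0.22) and mitochondrial ribosomal proteins (0.46 and -0.16) have markers on opposite sides of 0. The medians over all tested genes are -0.13 and -0.31, so the 0% markers of both lists lie above that of all genes.

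Glycerol synthesis, the core of the osmotic response, had a positive median without a call. All 4 measured genes of glycerol synthesis had positive differences, from 0.81 to 1.65, with a median of 1.18, and 0 of the 4 were called. GPP2, a glycerol-3-phosphatase, had 3.24 and 1.90 at 50%, against 0.917 and 0.681 at 0%, without overlap (1.65 ± 0.61, limma adjusted p = 0.130). GPD1, the osmotically induced glycerol-3-phosphate dehydrogenase, had 5.49 and 3.52 at 50%, against 2.83 and 0.976 at 0% (1.40 ± 0.80, adjusted p = 0.309). STL1, the glycerol importer, had 8.38 and 4.14 at 50%, against 0.975 and 1.89 at 0% (2.12 ± 0.73, adjusted p = 0.106). The 50% arrays were above both 0% arrays in GPP2, GPD1 and STL1, and the groups did not overlap in 46.3% of all probe sets. They overlapped in the other glycerol synthesis genes, GPP1 and GPD2. GPP1 had 1.43 and 1.005 at 50%, against 1.07 and 0.357 at 0% (limma adjusted p = 0.498). GPD2 had 1.52 and 0.322 at 50%, against 0.528 and 0.300 at 0% (adjusted p = 0.541). Both ends of STL1 stood above the 5 to 20% arrays, which had 0.0239 to 0.0594. So did both ends of GPD1, whose 5 to 20% arrays had 0.0753 to 0.223. GUP2, a multi-pass membrane protein once linked to glycerol uptake, was called higher (3.09 ± 0.68, adjusted p = 0.0292). Its 50% ratios, 1.05 and 0.606, against 0.0410 and 0.215 at 0%, were near the 5 to 20% range of 0.952 to 1.499. The call was lost without the first 50% array or the first 0% array, up to an adjusted p of 0.111.

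Of 22 measured targets of the HOG pathway and osmotic stress, 1 was called between the ends, and the list median was 0.49. Over all probe sets 6.17% were called. The called gene was PHM8, a phosphatase of nucleotide and lysophosphatidate breakdown. It had 24.6 and 24.9 at 50%, against 2.07 and 1.69 at 0%, and 0.0812 to 0.340 at 5 to 20%. PHM8 was thus high at both ends and 13.2-fold higher at 50% than at 0% (3.72 ± 0.76, adjusted p = 0.0242). It lost its call without the first 50% array or either 0% array (adjusted p up to 0.131). GRE2, a methylglyoxal reductase widely used as a reporter of osmotic stress, had 5.87 and 2.72 at 50%, against 1.62 and 1.53 at 0% (1.35 ± 0.50, adjusted p = 0.129). In the list of HOG pathway components 1 of 23 was called, the transcription factor SMP1 (1.80 ± 0.42, adjusted p = 0.0334). The call of SMP1 was lost without the first 50% array or either 0% array (adjusted p up to 0.177).

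Among hexose transporters, the glucose-induced HXT1 was called between the ends, and whether glucose itself accounts for this was not tested. HXT1, the low-affinity glucose transporter induced by abundant glucose, had 1.82 and 0.900 at 50%, against 0.0399 and 0.0857 at 0%. The 50% arrays were at the level of the 5 to 20% arrays (0.658 to 1.83), and the 0% arrays lay far below them. HXT1 was 21.9-fold higher at 50% (4.45 ± 0.61, adjusted p = 0.00558) and kept its call in all 4 fits that left out an array. It was the 1 called gene among 14 measured hexose transporters, whose median was 0.33. HXT3, another low-affinity transporter, had 1.29 and 1.01 at 50%, against 0.488 and 0.404 at 0% (1.36 ± 0.60, adjusted p = 0.194). HXT7, a high-affinity transporter whose probe set may also read the near-identical HXT6, had 1.92 and 3.61 at 50%, against 0.805 and 1.05 at 0% (1.52 ± 0.69, adjusted p = 0.208). PFK27, which makes the glycolytic activator fructose-2,6-bisphosphate and was chosen after its values were seen, ran much like HXT1. It had 2.16 and 1.02 at 50%, against 0.0560 and 0.115 at 0%, and 0.873 to 1.73 at 5 to 20% (4.21 ± 0.55, adjusted p = 0.00556, kept in all 4 fits).

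Of 20 genes of glucose sensing and repression 2 rose, and both encode repressors that bind promoters of glucose-repressed genes. MIG3 had 1.43 and 1.97 at 50%, against 0.354 and 0.125 at 0% (2.998 ± 0.56, adjusted p = 0.0176). MIG1 had 2.48 and 1.93 at 50%, against 0.819 and 0.318 at 0% (2.10 ± 0.54, adjusted p = 0.0446). Their 0% arrays lay near the 5 to 20% arrays, which had 0.121 to 0.458 for MIG3 and 0.314 to 0.751 for MIG1, and their 50% arrays lay above them. The call of MIG1 was lost on leaving out any 1 of the 4 arrays (adjusted p up to 0.284), and that of MIG3 without the second 0% array (0.120). The list median was -0.12. USV1, a zinc finger regulator of growth on non-fermentable carbon, was the 1 called of 10 derepression factors, with 35.3 and 80.3 at 50%, against 23.7 and 7.32 at 0% (2.02 ± 0.53, adjusted p = 0.0488). Both ends were far above the 5 to 20% arrays (0.0327 to 0.345), and the call was lost without the second 50% array or the second 0% array (up to 0.299).

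SUC2, the invertase that cleaves sucrose, ran the other way without passing the test. It had 0.353 and 0.704 at 50%, against 1.37 and 2.58 at 0%, and 0.112 to 0.361 at 5 to 20% (-1.92 ± 0.54, adjusted p = 0.0592). The groups did not overlap, and the lower 50% array was within the 5 to 20% range. Among 10 measured genes of sucrose and maltose use 0 were called, with a median of -0.33. In the galactose regulon 1 of 8 was called. That gene, GAL10, the epimerase of galactose breakdown, had 1.85 and 1.96 at 50%, against 0.341 and 0.451 at 0% (2.28 ± 0.34, adjusted p = 0.00650, kept in all 4 fits), while the list median was -0.36.

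**Figure D2:**
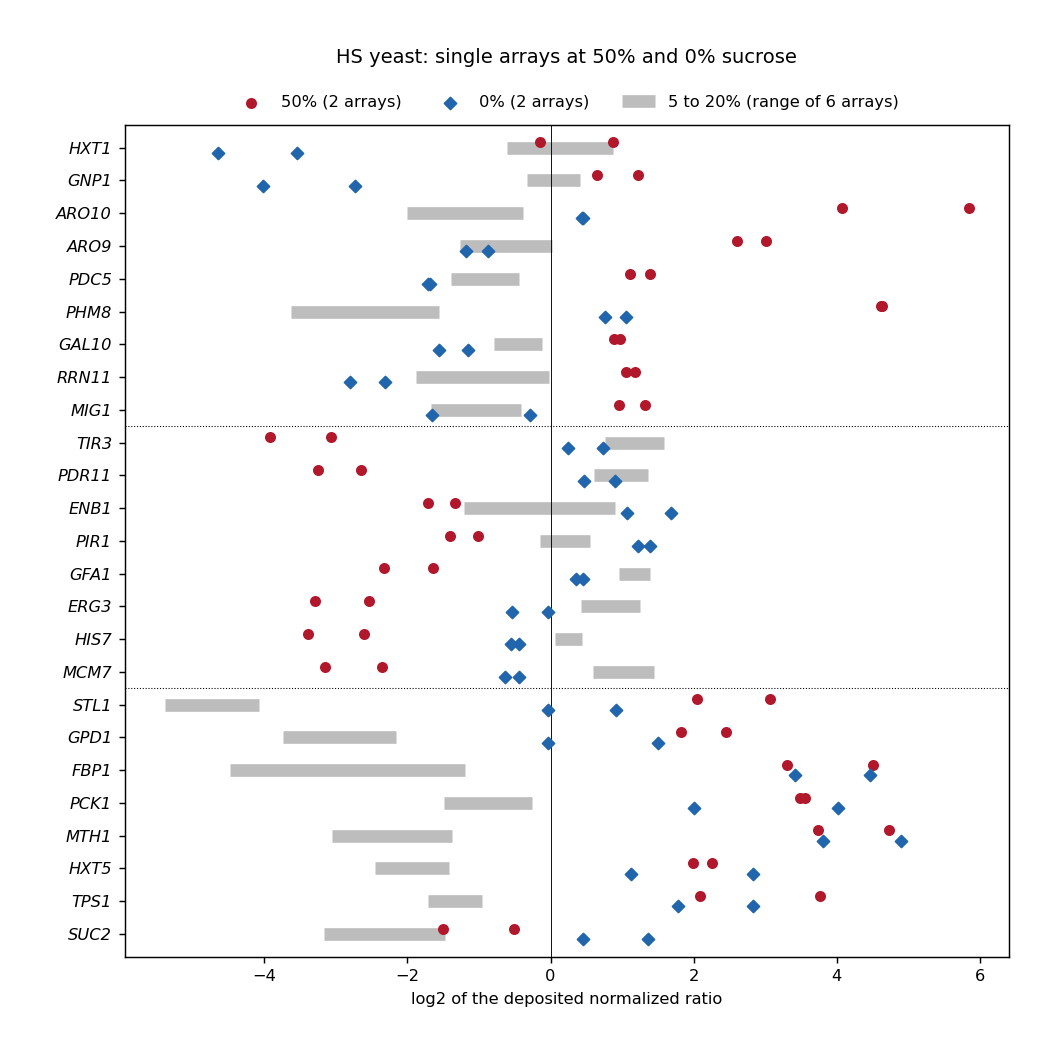
Log2 of the normalized ratio on each HS array at 50% (circles) and 0% sucrose (diamonds) for 25 genes, with the range of the 6 arrays at 5 to 20% as a grey bar. The upper block was called higher at 50%, the middle block lower, and the lower block was not called. At 50% HXT1 falls in its grey bar and at 0% far to the left of it, while for FBP1 both ends lie far to the right of the bar.

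Some genes of amino acid transport and breakdown were higher at 50%. Of 23 amino acid and peptide permeases 4 rose and 0 fell, with a list median of 0.19. Over all probe sets 3.42% were called higher and 2.75% lower. After quantile normalization 1 permease was called higher. GNP1, a glutamine permease, had 2.33 and 1.57 at 50%, against 0.0619 and 0.151 at 0%. Its 50% arrays were above the 5 to 20% range of 0.793 to 1.33 and its 0% arrays far below it (4.30 ± 0.50, 19.8-fold, adjusted p = 0.00402, kept in all 4 fits). BAP2, a branched-chain amino acid permease, had 2.13 and 1.47 at 50%, against 0.165 and 0.384 at 0% (2.81 ± 0.61, adjusted p = 0.0282). PTR2, the di- and tripeptide transporter, had 7.58 and 1.01 at 50%, against 0.0101 and 0.347 at 0% (5.55 ± 1.43, adjusted p = 0.0446). Here 1 of the 0% arrays was next to the lowest value of the table, 0.01, so the size of that difference is poorly fixed. DIP5, a permease of acidic amino acids, had 0.0412 and 0.187 at 50%, against 0.0134 and 0.0151 at 0% (2.63 ± 0.67, adjusted p = 0.0445). Both ends of DIP5 were far below the 5 to 20% arrays (2.11 to 4.54). Without single arrays 1 to 3 permeases were called higher, and 2 were called lower without the second 50% array. The adjusted p reached 0.123 for BAP2 (lost without the first 50% or either 0% array), 0.184 for PTR2 (the first 50% or first 0% array) and 0.178 for DIP5 (the second 50% or either 0% array).

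The Ehrlich pathway turns aromatic and branched-chain amino acids into fusel alcohols, and in this set of 20 genes, gathered after the calls were seen, 3 were called higher and 0 lower. These 3 catalyse its transamination and decarboxylation steps. ARO9, an aromatic aminotransferase, had 8.04 and 6.11 at 50%, against 0.548 and 0.441 at 0%. The 0% arrays of ARO9 lay in the range of the 5 to 20% arrays (0.418 to 1.02), and both 50% arrays were well above it (3.83 ± 0.49, 14.3-fold, adjusted p = 0.00556, kept in all 4 fits). ARO10, the phenylpyruvate decarboxylase, had 16.9 and 57.3 at 50%, against 1.35 and 1.37 at 0%, and 0.248 to 0.763 at 5 to 20% (4.51 ± 0.76, 22.8-fold, adjusted p = 0.0113). Its adjusted p reached 0.0682 without a 0% array. PDC5, a minor isoform of pyruvate decarboxylase that also acts in this pathway, had 2.17 and 2.63 at 50%, against 0.306 and 0.310 at 0% (2.95 ± 0.42, 7.75-fold, adjusted p = 0.00558, kept in all 4 fits). The list median was -0.25, and 8 of the 20 differences were above 0. Under quantile normalization the adjusted p was 0.0698 for ARO9, 0.0798 for ARO10 and 0.0567 for PDC5.

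Several genes of amino acid biosynthesis were lower at 50%. Histidine biosynthesis had a median of -1.28, with 2 of 7 genes called lower and 0 higher. HIS7, the imidazole glycerol phosphate synthase, had 0.165 and 0.0952 at 50%, against 0.740 and 0.680 at 0%, and 1.05 to 1.35 at 5 to 20% (-2.50 ± 0.44, adjusted p = 0.0140). HIS2, a histidinol phosphatase, had 0.291 and 0.237 at 50%, against 1.06 and 1.11 at 0% (-2.04 ± 0.33, adjusted p = 0.00897). Both 50% arrays were below both 0% arrays in each gene. Without a 0% array the adjusted p reached 0.0805 for HIS7, and it reached 0.0614 for HIS2 without the second one. Of 46 other amino acid genes 4 fell and 3 rose, with a median of -0.58. Those that fell were ARG4 (-2.14 ± 0.51), ARG2 (-2.01 ± 0.40) and ARG7 (-1.57 ± 0.37) of arginine synthesis and TRP4 (-1.69 ± 0.43) of tryptophan synthesis, with adjusted p from 0.0221 to 0.0426. Those that rose were ARO9, ARO10 and the chorismate mutase ARO7 (1.40 ± 0.36, adjusted p = 0.0445). None of the 4 that fell stayed called without either 0% array, and only ARG2 did without the first 50% array and only ARG4 without the second (adjusted p otherwise up to 0.203). ARO7 lost its call without the first 50% or either 0% array (up to 0.239). Lysine biosynthesis had a median of -0.80 with 0 of 10 genes called. Its member LYS1, saccharopine dehydrogenase, had 0.148 and 0.123 at 50%, against 0.535 and 0.497 at 0% (-1.93 ± 0.52, adjusted p = 0.0508).

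Related synthetic pathways gave at most 1 call in each direction per list, where 6.17% of all probe sets were called. GCV1, the T subunit of the glycine cleavage system, was the 1 called gene of 21 in purine and one-carbon synthesis (-2.44 ± 0.52, adjusted p = 0.0255, list median -0.84). MET13, a methylenetetrahydrofolate reductase of methionine synthesis, had 0.179 and 0.159 at 50%, against 0.586 and 0.726 at 0% (-1.95 ± 0.35, adjusted p = 0.0141). In its list of 31 genes MET31, a zinc finger regulator of sulfur genes, rose (1.58 ± 0.39, adjusted p = 0.0402), and the list median was -0.10. GSH2, glutathione synthetase, was the 1 called of 28 antioxidant genes (-2.23 ± 0.47, adjusted p = 0.0249). Without single arrays the adjusted p reached 0.113 for GCV1, 0.108 for MET13, 0.201 for MET31 and 0.140 for GSH2, and each lost its call without either 0% array. GCV1, MET31 and GSH2 also lost it without the first 50% array.

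Several genes of the cell surface were lower at 50%. Of 25 wall mannoproteins of the DAN, TIR, PAU and PIR families 5 fell and 0 rose, with a list median of -0.34. Over all probe sets 2.75% were called lower. TIR3, a serine-rich mannoprotein of the anaerobic cell wall, had 0.0663 and 0.119 at 50%, against 1.65 and 1.18 at 0%, and 1.69 to 2.99 at 5 to 20%. It was 15.7-fold lower (-3.98 ± 0.56, adjusted p = 0.00558), the largest fall of all called probe sets, and the call was kept in all 4 fits that left out an array. TIR1, a relative also induced by cold, had 0.132 and 0.199 at 50%, against 0.734 and 1.46 at 0%, and both ends were below its 5 to 20% range of 4.76 to 9.96 (-2.68 ± 0.47, adjusted p = 0.0140). PIR1 and PIR3 encode wall proteins that are cross-linked to glucan and respond to wall damage. PIR1 had 0.377 and 0.494 at 50%, against 2.62 and 2.33 at 0%, on either side of the 5 to 20% range of 0.903 to 1.47 (-2.52 ± 0.36, adjusted p = 0.00558, kept in all 4 fits). PIR3 had 1.71 and 8.91 at 50%, against 41.2 and 17.5 at 0%, with both ends above 5 to 20% (-2.79 ± 0.68, adjusted p = 0.0391). DAN4 fell too (-2.15 ± 0.42, adjusted p = 0.0199). The calls lower in this list numbered 3 and 2 without the first or second 0% array and 3 and 6 without the first or second 50% array. TIR1 lost its call without the second 0% array (adjusted p 0.109), and PIR3 and DAN4 without the first 50% or either 0% array (up to 0.166 and 0.111).

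Ergosterol is the membrane sterol of yeast, and 7 of the 30 genes of its pathway fell while 0 rose. Over all probe sets 2.75% were called lower. The 7 were ERG12, ERG8 and MVD1 of the mevalonate branch and ERG24, ERG3, ERG5 and ERG4 of the late steps that remodel the sterol ring and side chain. ERG3, the C-5 sterol desaturase, had 0.173 and 0.102 at 50%, against 0.980 and 0.689 at 0%, and 1.34 to 2.38 at 5 to 20% (-2.63 ± 0.45, adjusted p = 0.0115). ERG24, the C-14 reductase, had 0.135 and 0.311 at 50%, against 0.960 and 1.09 at 0% (-2.32 ± 0.44, adjusted p = 0.0184). ERG5, the C-22 desaturase, had 0.228 and 0.218 at 50%, against 1.18 and 0.752 at 0% (-2.08 ± 0.40, adjusted p = 0.0186). In each of these 3 the 50% arrays were below the 0% arrays, and the 0% arrays were within or below the 5 to 20% range. The differences of the other 4 ran from -1.82 to -1.33. The list median was -0.41, and against the 5 to 20% arrays it was -1.37 at 50% and -0.81 at 0%. Quantile normalization left 2 genes of the list called lower. The calls lower in this list numbered 0 and 2 without the first or second 0% array and 3 and 4 without the first or second 50% array. The adjusted p reached 0.0705 for ERG3 and 0.0901 for ERG5 without the first 0% array, while ERG24 lost its call without the first 50% or either 0% array (up to 0.111).

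PDR11, a plasma membrane transporter that takes up sterols when they cannot be made, also fell. It had 0.105 and 0.160 at 50%, against 1.39 and 1.86 at 0%, and 1.52 to 2.56 at 5 to 20% (-3.63 ± 0.49, 12.4-fold lower, adjusted p = 0.00558, kept in all 4 fits). Other lipid pathways gave 1 call each. IFA38, the ketoreductase of very long chain fatty acid elongation, fell among 12 genes of fatty acid synthesis (-2.35 ± 0.42, adjusted p = 0.0140). CPT1, cholinephosphotransferase, fell among 20 genes of phospholipid synthesis (-2.14 ± 0.40, adjusted p = 0.0180). IFA38 lost its call without the second 0% array (0.111), and CPT1 without the first 50% or either 0% array (up to 0.0918). INO1, the inositol phosphate synthase, had 1.66 and 4.18 at 50%, against 3.79 and 1.85 at 0% (-0.01 ± 0.58, adjusted p = 0.993).

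Glycosylation and the synthesis of GPI anchors supply sugar chains and lipid anchors to wall and membrane proteins. In this set of 78 measured genes, gathered after the calls were seen, 12 fell and 2 rose, with a median of -0.51. Over all probe sets 2.75% were called lower and 3.42% higher. A set gathered with the calls known cannot be measured against these shares. Under quantile normalization 2 genes of the set were called lower and 1 higher. GFA1, which makes glucosamine-6-phosphate for chitin, glycans and anchors, had 0.319 and 0.200 at 50%, against 1.37 and 1.28 at 0%, and 1.93 to 2.62 at 5 to 20% (-2.39 ± 0.35, adjusted p = 0.00650). ALG2, a mannosyltransferase of the lipid-linked oligosaccharide, had 0.293 and 0.188 at 50%, against 0.999 and 1.11 at 0% (-2.17 ± 0.32, adjusted p = 0.00650). Both kept their calls in all 4 fits. GAA1 of the GPI transamidase (-2.30 ± 0.36), BST1, which remodels GPI anchors (-2.21 ± 0.39), and MNN1, a Golgi mannosyltransferase (-2.32 ± 0.49), were among the others that fell. The 2 that rose were ALG5, the dolichyl-phosphate glucosyltransferase (2.85 ± 0.39, adjusted p = 0.00558, kept in all 4 fits), and ANP1, a subunit of a Golgi mannan polymerase (1.66 ± 0.40, adjusted p = 0.0383). The calls lower in this set numbered 6 and 2 without the first or second 0% array and 7 and 13 without the first or second 50% array. GAA1 and BST1 lost theirs without the second 0% array (0.0538 and 0.108), and MNN1 and ANP1 without the first 50% or either 0% array (up to 0.142 and 0.166). Enzymes of wall glucan and chitin did not share a direction, with PST1 lower (-2.20 ± 0.49), UTR2 higher (2.36 ± 0.61) and a median of 0.00 over 33 genes. On all 4 arrays PST1 was above its 5 to 20% range of 0.158 to 0.328, and UTR2 was below its range of 1.45 to 4.06. PST1 and UTR2 likewise lost their calls without the first 50% or either 0% array (up to 0.132 and 0.179).

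**Figure D3:**
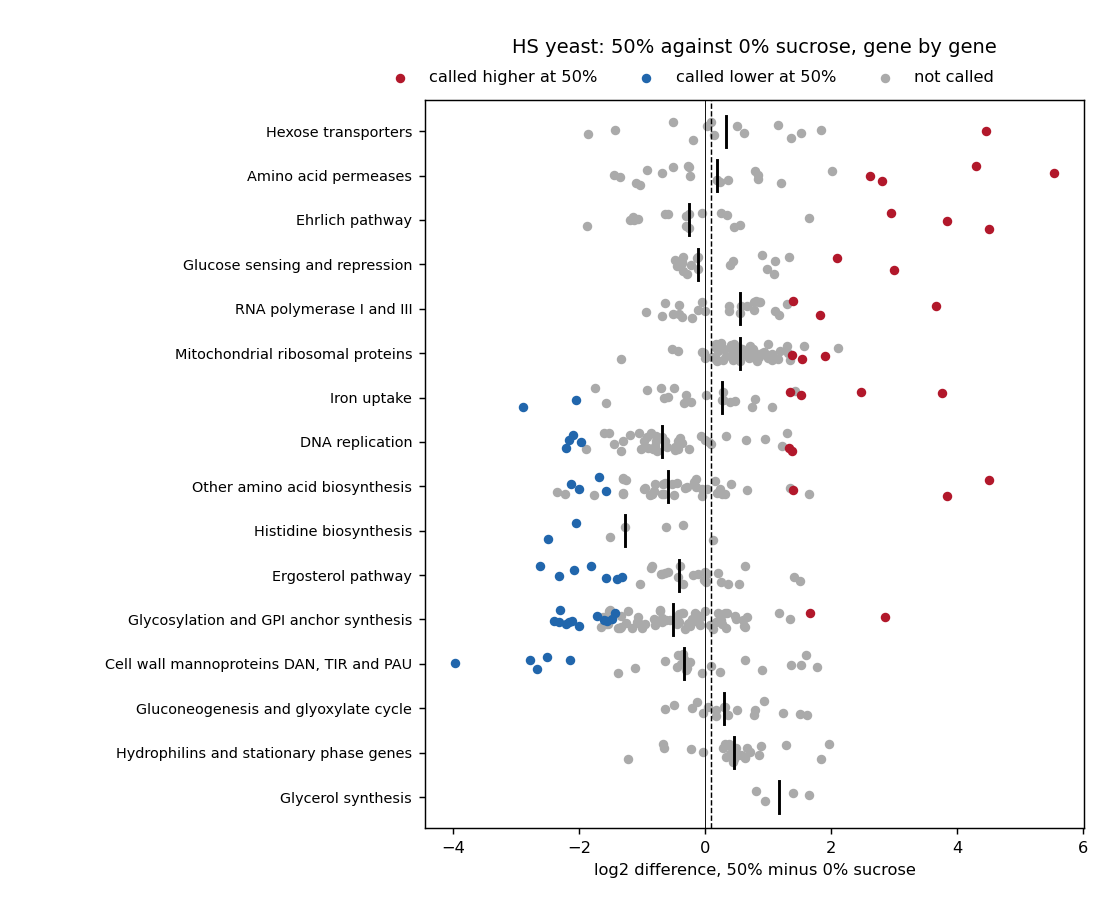
Log2 difference, 50% minus 0% sucrose, of each measured gene in 16 lists, with called genes coloured, the list median as a black bar and the median of all genes (0.10) as a dashed line. Ergosterol (7 lower) and wall mannoproteins (5 lower) hold their calls on the left, and permeases (4 higher) and the Ehrlich pathway (3 higher) on the right. Glycosylation and GPI anchors hold 12 calls on the left and 2 on the right. This list and that of the Ehrlich pathway were gathered after the calls were seen.

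DNA replication genes were low at both ends of the series. Their median against the 5 to 20% arrays was -1.86 at 50%, where 38 of 45 genes were called lower, and -1.18 at 0%, where 29 of 45 were. The shares of all probe sets called lower were 25.4% and 18.7%. Between 50% and 0% the median was -0.69, with 4 genes called lower and 2 higher. After quantile normalization 0 of the 45 were called between the ends. The replicative helicase subunit MCM7 had 0.113 and 0.196 at 50%, against 0.641 and 0.737 at 0%, and 1.51 to 2.71 at 5 to 20% (-2.21 ± 0.43, adjusted p = 0.0199). MCM5 of the same helicase (-2.16 ± 0.53), PSF2 of the GINS complex (-2.10 ± 0.44) and POL3, the catalytic subunit of DNA polymerase delta (-1.97 ± 0.41), also fell. SLD5, another GINS subunit (1.38 ± 0.33), and ORC3 of the origin recognition complex (1.33 ± 0.34) rose, so the calls were not of 1 direction even within GINS. The calls lower in this list numbered 1 and 0 without the first or second 0% array and 5 and 3 without the first or second 50% array. The highest adjusted p without an array was 0.120 for MCM7, 0.203 for MCM5, 0.155 for PSF2, 0.166 for POL3, 0.152 for SLD5 and 0.214 for ORC3.

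Cell cycle regulators that rose at 50% included CDC5, the polo kinase of mitosis, with 2.57 and 1.79 at 50%, against 0.446 and 0.313 at 0%, and 0.823 to 1.004 at 5 to 20% (2.52 ± 0.43, adjusted p = 0.0124). HST3, a histone deacetylase that acts on newly placed histones, rose as well (2.54 ± 0.54, adjusted p = 0.0252). They were the 2 called of 21 mitotic genes, whose median was 0.93. CDC6, which loads the replicative helicase, was the 1 called of 22 genes of G1 and S phase. It had 0.411 and 0.188 at 50%, against 0.0646 and 0.0407 at 0%, far under its 5 to 20% range of 2.99 to 7.04 on all 4 arrays (2.44 ± 0.57, adjusted p = 0.0336). Without single arrays the adjusted p reached 0.0978 for CDC5 (without the second 0% array) and 0.159 for HST3 and 0.203 for CDC6 (each lost without the first 50% or either 0% array).

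Growth-related lists held from 0 to 3 calls each, where 3.42% of all probe sets were called higher and 2.75% lower. Of 128 cytosolic ribosomal proteins 0 were called, with a median of 0.41, and 119 of the 128 differences were above 0, against 2959 of the 5449 genes tested. Differences on these arrays also varied with gene length, as described below. The part of length in such counts of signs was not tested. Of 107 ribosome biogenesis genes 1 was called, UTP5 (1.93 ± 0.44), with a median of 0.45. RNA polymerases I and III, which transcribe ribosomal and transfer RNA, had 3 of 27 genes higher and 0 lower. RRN11 of the core factor that recruits polymerase I had 2.27 and 2.08 at 50%, against 0.202 and 0.144 at 0%, and 0.273 to 0.983 at 5 to 20% (3.67 ± 0.43, 12.7-fold, adjusted p = 0.00402, kept in all 4 fits). The subunits RPC37 of polymerase III (1.83 ± 0.35) and RPA12 of polymerase I (1.39 ± 0.34) also rose. Mitochondrial ribosomal proteins had a median of 0.55, with 58 of 64 differences above 0 and 3 genes called higher, MRPL27, MRP10 and MRPL19 (1.90, 1.53 and 1.38). These 3 lost their calls on leaving out any 1 of the 4 arrays (adjusted p up to 0.268), and other members of the list were called in some of those fits. UTP5, RPC37 and RPA12 lost theirs without the first 50% or second 0% array, and UTP5 and RPA12 also without the first 0% array (up to 0.203, 0.135 and 0.146). In the proteasome list 0 of 35 were called and 6 differences were above 0 (median -0.37), and among chaperones 0 of 29 were called (median 0.54).

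Lists of respiration, glycolysis and fermentation held at most 1 call each, where 6.17% of all probe sets were called. CIT3, a mitochondrial methylcitrate synthase, was the 1 called of 17 genes of the tricarboxylic acid cycle, with 8.597 and 49.5 at 50%, against 2.25 and 1.79 at 0% (3.36 ± 0.82, adjusted p = 0.0386). It lost its call without the second 50% or either 0% array (up to 0.198), and the list median was -0.50. Among 34 genes of the respiratory chain and ATP synthase 0 were called, with a median of -0.10. Among 13 glycolytic genes 0 were called, with differences from -0.49 to 0.53. Of 11 genes of fermentation and acetaldehyde metabolism 1 was called, PDC5, described above, and the list median was -0.08.

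Of 27 iron uptake genes 4 rose and 2 fell. After quantile normalization 0 were called higher and 1 lower. ENB1, the transporter of the bacterial iron carrier enterobactin, had 0.398 and 0.305 at 50%, against 2.10 and 3.20 at 0% (-2.90 ± 0.40, adjusted p = 0.00558, kept in all 4 fits). ARN2, the transporter of another siderophore, fell as well (-2.05 ± 0.50). Those that rose were the reductase FRE4 (3.76 ± 0.92), the heme oxygenase HMX1 (2.48 ± 0.49), the iron regulator AFT2 (1.52 ± 0.37) and the iron-sulfur scaffold ISU1 (1.34 ± 0.31). Without single arrays ARN2, FRE4, HMX1, AFT2 and ISU1 lost their calls, each without the first 50% and the second 0% array at least (up to 0.256). Of 23 genes of thiamine and other vitamins the thiamine regulator THI2 (3.48 ± 0.57, adjusted p = 0.00986) and the thiamine synthesis gene THI13 (2.58 ± 0.66, adjusted p = 0.0446) rose. THI13 belongs to a family of near-identical copies that a probe set may not tell apart. THI2 lost its call without either 0% array (0.0569) and THI13 without any 1 of the 4 (up to 0.209).

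Of 25 stress regulators and signalling genes 2 fell and 1 rose, with a median of -0.11. These 3 belong to the cyclic AMP pathway, which restrains stress genes when glucose is present. Adenylate cyclase CYR1 (-2.03 ± 0.50, adjusted p = 0.0402) and the Ras inhibitor IRA1 (-1.76 ± 0.45, adjusted p = 0.0446) fell, and the phosphodiesterase PDE2, which breaks cyclic AMP down, rose (1.55 ± 0.35, adjusted p = 0.0299). CYR1 and IRA1 are among the longest genes tested, with coding lengths of 6081 and 9279 bases. All 3 lost their calls without the first 50% or either 0% array (up to 0.203, 0.209 and 0.148). CMP2, a catalytic subunit of the phosphatase calcineurin, was the 1 called of 25 genes of potassium, sodium and pH homeostasis, and it fell (-1.92 ± 0.40, adjusted p = 0.0246) and was lost with the same arrays (up to 0.117). Of 19 genes of mating type and mating, the a-factor precursor MFA1 (1.86 ± 0.47) and the G protein subunit STE18 (2.99 ± 0.74) rose. STE18 lost its call without either 50% or the second 0% array and MFA1 without the second 50% or either 0% array (up to 0.264 and 0.209). Of 26 genes of meiosis and sporulation 0 were called (median 0.66).

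The largest rises were mostly of genes with little known function. YKL183C-A had 2.21 and 7.13 at 50%, against 0.0124 and 0.137 at 0% (6.59 ± 1.21, adjusted p = 0.0169). ANS1, a putative GPI-anchored protein, had 38.4 and 12.9 at 50%, against 0.215 and 0.378 at 0%, and 0.311 to 1.18 at 5 to 20% (6.29 ± 0.82, 78.2-fold, adjusted p = 0.00556). BUD25 had 2.24 and 1.80 at 50%, against 0.0309 and 0.0363 at 0% (5.90 ± 0.61, adjusted p = 0.00385), but its gene overlaps its neighbours HEM14 and FAA2 and is reported as uncertain. LDS2, a protein of lipid droplets in developing spores, had 10.4 and 5.20 at 50%, against 0.172 and 0.318 at 0% (4.97 ± 0.73, adjusted p = 0.00650). ANS1, BUD25 and LDS2 kept their calls in all 4 fits, as did YMR244W (4.70 ± 0.66) and YGR240C-A (4.63 ± 0.69). YKL183C-A lost its call without the first 0% array (0.0804). The other 6 of the 12 largest rises were RRT5, PTR2, YOL155W-A, PSR1, YNL033W and YER085C, from 4.63 to 6.03, and each of them lost its call without at least 1 array (up to 0.220). The LS arrays at 0% had S. pombe median ratios of 0.382 and 8.44. On these arrays BUD25 had 0.151 and 26.99, YKL183C-A 0.735 and 44.8, and YGR240C-A 0.567 and 22.1. ANS1 had 0.0929 and 0.373 there, LDS2 0.669 and 0.727, and YMR244W 0.918 and 1.08. The part of this background in these rises was not tested.

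The 12 largest falls were led by TIR3, BSC5 and PDR11. BSC5, named for read-through of its stop codon, had 0.434 and 0.461 at 50%, against 8.41 and 4.04 at 0%, with 0.496 to 2.32 at 5 to 20% (-3.70 ± 0.68, adjusted p = 0.0164, and 0.0826 without the first 0% array). YNR065C, a relative of sorting receptors, had 0.0418 and 0.121 at 50%, against 0.466 and 0.996 at 0% (-3.26 ± 0.56, adjusted p = 0.0123, and 0.101 without the second 0% array). SEO1, a putative permease, had 0.182 and 0.1 at 50%, against 0.957 and 1.01 at 0% (-2.87 ± 0.44, adjusted p = 0.00650, kept in all 4 fits). In BSC5 the ends lay on either side of the 5 to 20% range, and in YNR065C and SEO1 the 50% arrays were below it. ATG38, a subunit of the autophagy lipid kinase, had 1.27 and 1.501 at 50%, against 9.04 and 9.77 at 0% (-2.77 ± 0.62, adjusted p = 0.0299). It lost its call on leaving out any 1 array (up to 0.152), and 0 of the 33 autophagy genes in the list, which does not hold ATG38, were called. The others were ENB1, PIR3, TIR1 and ERG3, described above, and YKL222C and YNR068C (-2.81 and -2.74).

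The 7 concentrations of the HS series show where on the scale the ends part. HXT1 and PFK27 had their low values at 0% alone, and from 5% upward their ratios lay between 0.658 and 3.33. GNP1 behaved likewise, with 0.0619 and 0.151 at 0%, 1.33 and 0.865 at 5%, and 2.33 and 1.57 at 50%. ARO9 stayed between 0.418 and 1.20 from 0 to 30% and had 3.79 and 5.84 at 40% and 8.04 and 6.11 at 50%. ARO10 had 0.892 and 2.77 at 40% and 16.9 and 57.3 at 50%, so most of its difference lay in the last step. TIR3 had 1.06 and 0.941 at 30%, 0.354 and 0.0946 at 40%, and 0.0663 and 0.119 at 50%. PDR11 had 1.21 and 1.92 at 30%, 0.789 and 0.289 at 40%, and 0.105 and 0.160 at 50%. These genes therefore parted from the 0% arrays at the high end of the series. FBP1 and STL1 were high at both ends with a trough between them, and SUC2 was high at 0% with 0.112 to 0.361 from 5 to 40%.

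**Figure D4:**
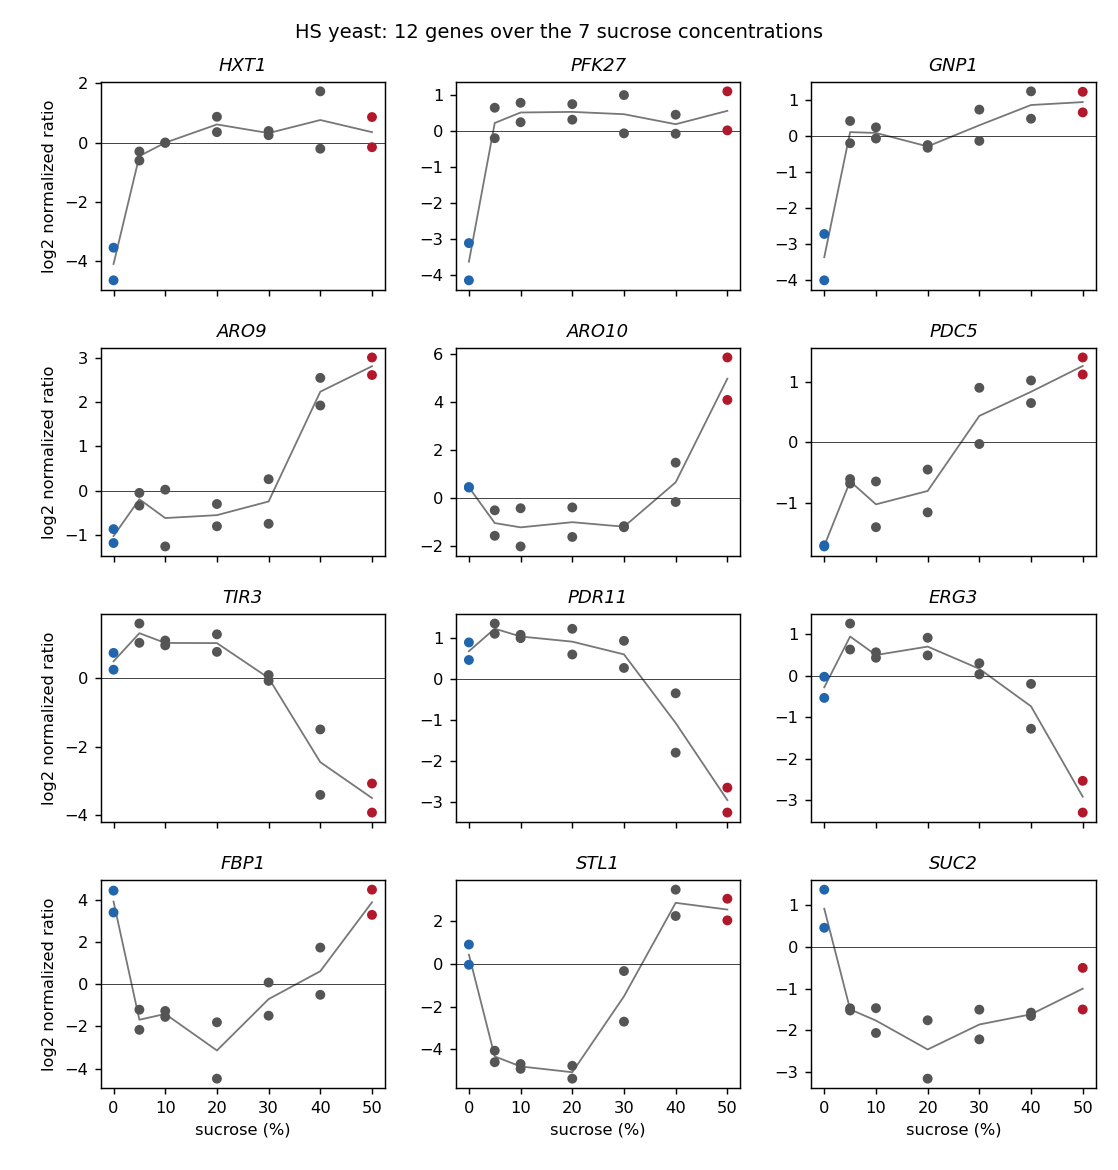
Log2 normalized ratio of 12 genes on the 14 HS arrays against sucrose concentration (%), with 2 points per concentration and a line through their means (50% red, 0% blue). HXT1, PFK27 and GNP1 are low at 0% alone, ARO9, ARO10 and PDC5 are highest at 50%, TIR3, PDR11 and ERG3 are lowest at 50%, and FBP1 and STL1 are high at both ends.

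The called genes also differed in length, a property that no list used. Genes called higher had a median length of 1101 bases and genes called lower 1803, against 1230 over all tested. Lengths are those of the RefSeq genes and may include introns. Of 252 probe sets for genes of up to 300 bases 21 were called higher (8.33%) and 0 lower, with a median difference of 0.67. Of 462 for genes over 3000 bases 3 were called higher (0.649%) and 33 lower (7.14%), with a median of -0.46. The short genes had median log2 ratios of -0.02 and 0.06 on the 50% arrays, against -0.75 and -0.92 on the 0% arrays. The long genes had -0.22 and -0.70 on the 50% arrays, against -0.03 and -0.11 on the 0% arrays. Short genes were thus low on the 0% arrays and long genes low on the 50% arrays, and the part of length in the calls was not tested. Of the genes above, YKL183C-A, YOL155W-A, YGR240C-A, MFA1 and MRP10, all higher, are in the short class, and PDR11, POL3, BST1, DAN4, YNR065C, CYR1 and IRA1, all lower, are in the long class.

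In LS yeast the same comparison gave 337 calls (6.13%), 208 higher (3.78%) and 129 lower (2.35%), in a fit of all 28 arrays, which gave 0 calls for HS. The difference between the yeasts, HS minus LS, gave 0 calls by limma (0%), with 615 probe sets at an unadjusted p under 0.05. The second LS replicates at 50 and 0% are among 6 arrays whose S. pombe median ratio was between 1.51 and 13.7, so LS values are given here as values. ARO9 had 5.79 and 3.49 in LS at 50%, against 0.984 and 0.124 at 0%, a difference of 3.69 beside 3.83 in HS. GAL10 had 363.3 and 190.9 in LS at 50%, against 35.7 and 10.1 at 0% (3.79 beside 2.28 in HS). PCK1 had 49.9 and 10.8 in LS at 50%, against 0.933 and 0.288 at 0%, and the LS arrays at 0% were below the HS arrays at 0% (16.2 and 4.01). The difference between the yeasts was -4.98 ± 1.33 for PCK1 (adjusted p = 0.137). GNP1 ran in opposite directions, with 0.0478 and 0.01 in LS at 50%, against 1.05 and 0.350 at 0%. The difference between the yeasts for GNP1 was 9.10 ± 1.89 (adjusted p = 0.0687), a size poorly fixed because 1 LS array at 50% had the lowest value of the table, 0.01.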

How the data were processed

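Values are the authors' deposited table of normalized ratios on a linear scale. Per the series' design text the authors scaled each chip on positive genes without S. pombe and then each gene, in GeneSpring v7.0. The summary over probes is not stated. Of 10928 probe sets 5498, for 5449 genes, carried 1 S. cerevisiae symbol and were tested, and 1746 were S. pombe. Samples were grouped by their titles.

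Log2 ratios of the 14 HS arrays entered a cell-means model (limma 3.58.1 under R 4.3.3; eBayes, no trend), leaving 7 residual degrees of freedom plus 3.95 from the prior. P-values were 2-sided with a call at a Benjamini-Hochberg adjusted p under 0.05. The difference between yeasts used all 28 arrays. Genes with several probe sets counted once in lists, by the mean. Gene lengths came from RefSeq, may include introns, and were a multiple of 3 for 96.3% of protein-coding genes. The fit was tested on simulated data, where it called 8, 52, 94 and 96% of log2 changes of 1, 2, 4 and 6. A gene not called may therefore still differ. The simulated arrays varied independently, without the background of these data or the deviations that same-numbered arrays share. Of 5298 unchanged probe sets 4 were called. Plots used matplotlib 3.10.9.

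The comparison and the gene lists were chosen with earlier results of these data known. The lists of glycosylation and GPI anchors and of the Ehrlich pathway were added after seeing the calls. Named genes were the 12 largest rises and falls, up to 5 called members per list and direction, the 2 largest differences in lists with no call, and a set list of carbon, glycerol and stress genes. Names were left out for length, and PFK27, ERG8, ERG12 and genes in the closing section lie outside this rule. Alternatives were other fits, scalings, filters, a replicate block and each array left out. ENA1 and promoter sequences were not analysed here.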

Additional observations from a re-analysis of the deposited data

How the results depend on the processing

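The 339 calls of HS yeast at 50% against 0% sucrose were 0 with all 28 arrays in the fit, 46 with the 4 compared arrays alone, 48 after quantile normalization, 78 with S. pombe probe sets included, 13 for a required fold of at least 2, and 59 to 471 when 1 array was left out. Other settings gave 345 to 441, and the cause of each change was not tested beyond the fewer arrays of some fits. Median centring moved the split to 189 higher and 222 lower, and an offset of 0.2162 to 217 and 128. The 2535 calls at 50% against 5 to 20% were 828 with all arrays and 913 for the required fold, and 1852 to 2493 with 1 array left out. The 1771 calls at 0% were 459 with all arrays, 530 for the required fold and 725 to 2061 with 1 array left out (725 without the first 0% array). The difference between yeasts gave 845 calls without the 6 second LS replicates, when LS at 50 and 0% has 1 array each and is assumed to vary like the other groups, and 0 to 86 with 1 array left out. LS alone gave 1514 without those 6. A replicate block gave 824 calls at 50% against 0%, which held all 339, and 23 for the difference between yeasts. Of the named genes not called, it called 11, among them SUC2 (adjusted p = 0.0129) and LYS1 (0.0273), and none of glycerol synthesis. The labels share only the numbers: deviations of same-numbered arrays correlated at r = -0.02 to 0.43 over 21 pairs of HS groups (18 above 0.1, and 0.13 between 50% and 0%). In each of the 7 HS groups the strongest correlation was with arrays of the same number, and the 2 arrays of a group mirror each other. No called gene under the naming rule changed direction in these fits. Promoter motifs were planned and not run. With 2 arrays a group the median SE was 0.48 (log2).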

Other observations

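Of the 33 calls that were kept on leaving out any 1 of the 4 arrays, several lie outside the lists and were chosen after their values were seen. RSR1, the small GTPase that places the bud, had 2.52 and 1.52 at 50%, against 0.198 and 0.235 at 0%, with 0.881 to 1.22 at 5 to 20% (3.18 ± 0.35, limma adjusted p = 0.00385). MRS3, a mitochondrial iron carrier, had 1.56 and 1.68 at 50%, against 0.269 and 0.300 at 0%, with 1.15 to 1.49 at 5 to 20% (2.51 ± 0.31, adjusted p = 0.00496). In both genes the 50% arrays were above the 5 to 20% range and the 0% arrays below it.

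AQR1, an exporter of amino acids and organic acids, had 2.07 and 1.85 at 50%, against 0.114 and 0.297 at 0%, on either side of 0.445 to 0.851 at 5 to 20% (3.41 ± 0.46, adjusted p = 0.00558). PSK2, a kinase that directs sugar toward storage or wall glucan, had 2.83 and 2.23 at 50%, against 0.478 and 0.530 at 0%, on either side of 0.808 to 1.16 at 5 to 20% (2.32 ± 0.31, adjusted p = 0.00558). UCC1, the F-box protein that marks a glyoxylate cycle enzyme for breakdown when glucose is present, had 3.61 and 2.85 at 50%, against 0.494 and 0.465 at 0%. Its 0% arrays lay just under the 5 to 20% range of 0.512 to 0.659 (2.74 ± 0.29, adjusted p = 0.00385).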
